A study of Homo sapiens with 6 samples.

Results

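The first response of OVCAR5 cells to SpiD7 was measured after 2 h of treatment. Of the 6 RNA libraries of the series, the 4 whose titles name DMSO or SpiD7 2h were compared: 2 of cells given the vehicle and 2 of cells given 10 μM SpiD7 for 2 h. OVCAR5 is an established human cancer cell line, labelled as ovarian, and SpiD7 is a spirocyclic dimer made to bind cysteine residues of proteins covalently. No gene was altered in any group, all cells were kept in the same medium with serum, and the labels give no duration for the vehicle. They do not say whether replicates came from separate cultures, so that p-values measure only the spread between these libraries, which may be technical. Libraries of 6 h and 12 h of SpiD7, 1 each, are used below only as values.

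Each gene is given in FPKM, the fragments mapped to it relative to its length and to the mapped reads of the library. The columns named for replicate 2 behaved as means that include replicate 1: 0 of 18195 rows above 0 in DMSO replicate 1 were at 0 in its column, and 0 rows were more than 2-fold lower in it, against 523 more than 2-fold higher. Replicate 2 of each group was therefore recovered by subtracting the share of replicate 1, and every value of a replicate 2 below is such a recovered value. Of 29982 symbols, 13041 reached a mean FPKM of 1 and entered the tests. Differences are on the log2(FPKM + 0.1) scale, which understates those of low genes.

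Cells that meet damaged proteins switch on separate programs. Heat shock factor HSF1 raises cytosolic chaperones, which hold and refold proteins. NRF2, freed when cysteines of its inhibitor KEAP1 are modified, raises enzymes against oxidants and electrophiles. The unfolded protein response reads the endoplasmic reticulum (ER) through PERK, IRE1 and ATF6, and PERK acts through the transcription factors ATF4 and CHOP. Immediate-early genes such as FOS and EGR1 are transcribed within minutes of a growth signal or stress, and NF-kB raises cytokines and its own inhibitors.

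The replicates differed from each other more than most genes differed between the groups. Between the DMSO libraries, 1696 genes were more than 2-fold apart, 1058 of them higher in replicate 2, and 1364 genes were so between the 2 h libraries. The single symbol MIR6723, named as a microRNA gene, took 8.65 to 9.19% of all FPKM in both replicates 1 and 21.8 to 25% in both replicates 2. Which transcripts these reads came from was not tested. Depth relative to DMSO replicate 1, from the spacing of low values, was between 0.769 and 1.02 in the other libraries, and counts were not given. Of the 8 epithelial markers all had a mean FPKM of at least 1, with sums of 4217 and 3773 under DMSO and 4009 and 3216 at 2 h. Of 5 ovarian or Müllerian markers, PAX8 lay between 1.64 and 1.79 and MSLN between 2.95 and 3.59, while WT1, MUC16 and ESR1 did not exceed 0.686 in any library, so 3 of the 5 markers of the labelled tissue were near 0. Among the leukocyte markers, CD3E was at 0 in all 4 libraries and PTPRC did not exceed 0.0317, whereas CD68 lay between 22.7 and 37.3 and LYZ between 0.961 and 1.85. The leukocyte sum lay between 26.4 and 39.1 under DMSO and between 23.9 and 32.4 at 2 h. The endothelial sum was 0.799 and 11.5 under DMSO and 1.04 and 8.31 at 2 h, and the fibroblast sum lay between 3.32 and 7.39. The endothelial markers followed the replicate number and not the treatment.

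The question of this comparison is which genes moved first. After 2 h, 65 genes were separated upwards, meaning that the lower 2 h library lay more than 2-fold above the higher DMSO library, and 12 were separated downwards. These were 0.498% and 0.092% of all genes tested. All 4 libraries were above 0 for 58 of the 65 and for 5 of the 12. Counted by same-numbered pairs, 115 genes were more than 2-fold higher in both pairs (0.882%) and 14 more than 2-fold lower in both (0.107%). Within a single pair, 385 genes were more than 2-fold higher and 71 lower in replicate 1, and 281 were higher and 134 lower in replicate 2. Past 2-fold in opposite directions were 38 genes, of which 29 were higher in replicate 1 and lower in replicate 2. The median over all genes was -0.01, and genes whose 4 libraries merely did not overlap made up 13.5% higher and 8.24% lower.

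By limma, 5 genes (0.0383%) passed an adjusted p of 0.05 and 2-fold, 1 higher and 4 lower at 2 h. All 5 were listed at 0 in both libraries of a group and passed the filter on low values through the other group, so that their spread rests on 2 zeros and the pseudocount, and these calls are not read as changes. Among genes above 0 in all 4 libraries, the smallest limma adjusted p was 0.117, for HSPA6, which also passed that filter only through the 2 h libraries. Unadjusted p-values were under 0.05 for 328 genes, 293 higher and 35 lower, and an exact permutation of 2 against 2 libraries cannot go below 0.333. The genes below are therefore described by how far apart their libraries lay, and no gene is called changed. Without DMSO replicate 1, DMSO replicate 2, 2 h replicate 1 or 2 h replicate 2, limma called 24, 34, 12 and 39 genes, 150, 282, 168 and 134 were separated upwards, and 86, 46, 41 and 30 downwards. With a pseudocount of 1, 34 were separated upwards, and at a mean FPKM of at least 5, 31 were.

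**Figure D1:**
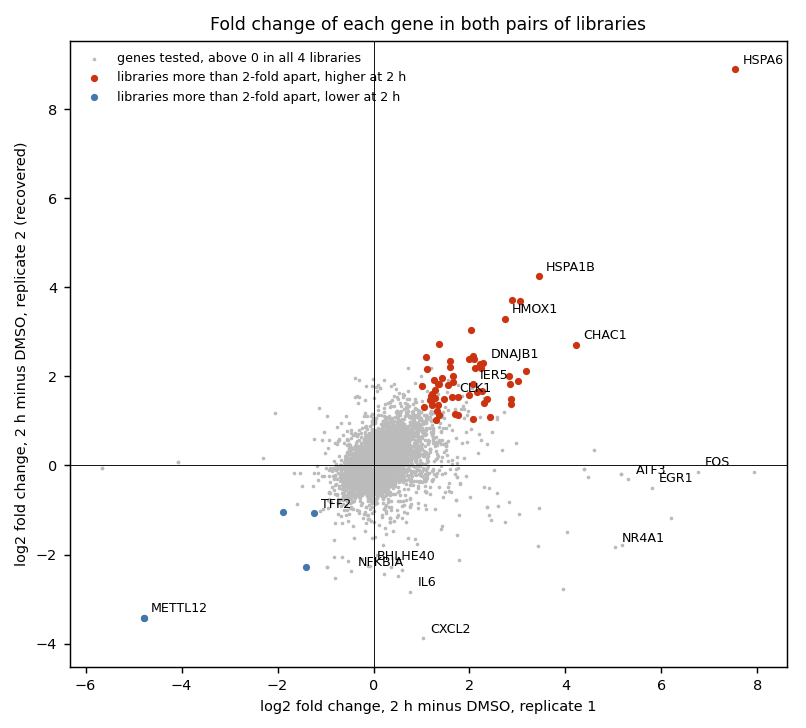
Log2 fold change (2 h minus DMSO) of each gene in replicate 1 (x axis) and in the recovered replicate 2 (y axis), for genes above 0 in all 4 libraries. The 58 separated genes higher at 2 h (red) lie far along both axes, with HSPA6 the farthest, the 5 lower ones (blue) lie to the lower left, and FOS, EGR1, ATF3 and NR4A1 lie far to the right but below 0 on the y axis.

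Cytosolic chaperones led the higher genes. HSPA6, an HSP70 with almost no basal transcription, was at 0.317 and 0.0965 FPKM in DMSO replicates 1 and 2 and at 77.5 and 93.6 FPKM in the 2 h libraries, so that the groups lay 186-fold apart at their nearest. Its mean log2 difference was 8.22 (SE 0.44, limma adjusted p = 0.117). HSPA6 reached the filter on low values only through the 2 h libraries, and its DMSO values lie near the pseudocount, so nothing is read from this p-value. In the region around its start (GRCh38.p14, chr1:161524290-161524589, plus strand), RefSeq's sequence holds both a heat shock element and an antioxidant response element, shown here in capitals because HSPA6 had the widest gap of all genes above 0 in every library.

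HSPA6: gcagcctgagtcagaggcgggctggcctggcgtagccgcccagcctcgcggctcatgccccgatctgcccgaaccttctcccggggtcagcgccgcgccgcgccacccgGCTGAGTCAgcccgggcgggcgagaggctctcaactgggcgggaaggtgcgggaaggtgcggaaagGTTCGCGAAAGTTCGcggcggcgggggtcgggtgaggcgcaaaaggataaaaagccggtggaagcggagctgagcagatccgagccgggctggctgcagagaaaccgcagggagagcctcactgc

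The heat shock element was searched as 3 adjoining units of 5 bases that alternate between NGAAN and NTTCN, and the antioxidant response element as TGACNNNGC, both on either strand. HSPA6 was the only separated gene with a match to this strict heat shock element, out of 44 of the 58 that had a promoter entry (2.27%). Over all 9984 tested genes with an entry, 26 held one (0.26%). Among the 31 listed heat shock genes with an entry, 6 did (19.4%), namely HSPA6, HSPA8, DNAJA1, DNAJB6, CHORDC1 and SERPINH1.

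The stress-inducible HSP70 genes HSPA1A and HSPA1B were separated as well. HSPA1B was at 34.2 and 25.2 FPKM under DMSO and at 373 and 484 at 2 h, 10.9-fold apart at the nearest. HSPA1A was at 44.3 and 33.7 under DMSO and at 326 and 446 at 2 h. Every 2 h library of either gene lay above every DMSO library. HSPA1L, a neighbour whose row has the same locus as HSPA1A (chr6:31809618-31821040 in the hg38 loci of the table), was at 0.58 and 0.641 under DMSO and at 5.52 and 9.48 at 2 h. HSPA1A and HSPA1B are nearly identical copies, short reads can be shared between them, and the kit does not mark strand. The separate levels of these genes, HSPA1L with its shared locus among them, are therefore uncertain. HSPA7, a copy close to HSPA6, was listed at 0 in both DMSO libraries and at 3.16 FPKM in both 2 h libraries, and was the 1 higher gene past the limma threshold (adjusted p = 0.048), reaching the filter through the 2 h libraries alone.

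The promoter of HSPA1B (GRCh38.p14, chr6:31827488-31827787, plus strand) is shown as well, with no exact match in this window to the elements searched and hence no capitals. It holds a near match, ggaatattcccgacc, that departs from the strict heat shock element in its last unit. The lack of capitals therefore does not mean that such an element is absent.

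HSPA1B: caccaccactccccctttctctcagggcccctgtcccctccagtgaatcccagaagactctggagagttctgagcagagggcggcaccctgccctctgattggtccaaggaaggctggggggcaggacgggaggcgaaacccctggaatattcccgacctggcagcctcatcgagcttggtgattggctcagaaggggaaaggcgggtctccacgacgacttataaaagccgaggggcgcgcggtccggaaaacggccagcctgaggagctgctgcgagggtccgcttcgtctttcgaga

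J-domain proteins hand unfolded proteins to HSP70. DNAJB1, the main stress-inducible one, was at 106 and 127 FPKM under DMSO and at 520 and 621 at 2 h, a log2 difference of 2.29 (SE 0.22). DNAJB4 was at 8.07 and 16.7 and then 38.6 and 75.8, and DNAJA4 was at 20.6 and 13.7 and then 44.5 and 74.4. All 3 were separated, while DNAJA1, with 434 and 291 under DMSO against 654 and 596 at 2 h, did not overlap but lay 1.37-fold apart, and DNAJB6 was between 66.5 and 98.1 throughout.

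Factors that recharge or steer HSP70 were also separated. HSPH1, an HSP110 that exchanges its nucleotide, was at 104 and 50.6 FPKM and then at 226 and 229. BAG3, which links HSP70 to selective autophagy, was at 40.5 and 28.0 and then at 97.2 and 107. ZFAND2A, a zinc finger protein of the proteasome induced by arsenite, was at 36.9 and 23.1 and then at 152 and 192, a log2 difference of 2.54 (SE 0.32). The groups did not overlap for any of them. IER5, which takes part in HSF1 regulation and is also listed as immediate-early, was at 9.98 and 13.2 and then at 42.1 and 46.7. DEDD2, a death effector domain protein, was at 20.7 and 23.1 and then at 52.9 and 81.7.

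Abundant chaperones stood apart less. HSP90AA1 was at 1542 and 713 FPKM under DMSO and at 1786 and 1211 at 2 h, so its groups overlapped. HSPA8, the constitutive HSP70, was at 1431 and 967 and then at 1773 and 1442, which barely did not overlap. The small heat shock protein CRYAB was the lowest of the list, with 1.97 and 2.81 under DMSO and 1.24 and 1.82 at 2 h, a log2 difference of -0.61. In all, 12 of the 33 heat shock genes were separated upwards, where 0.498% of all genes were. Without overlap, 22 were higher and 1 was lower, against 13.5% and 8.24% of all genes. The list's median was 0.65, 0.38 in replicate 1 and 0.96 in replicate 2.

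**Figure D2:**
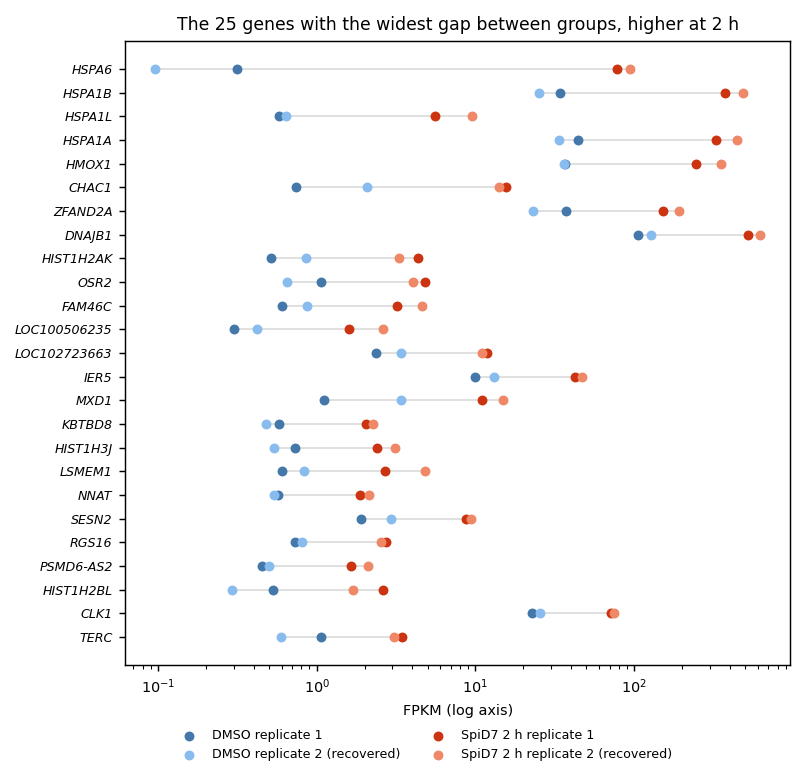
FPKM (log axis) in each of the 4 libraries of the 25 genes with the widest gap between groups among those higher at 2 h, above 0 in all 4 libraries and outside the small RNA class. In every row both 2 h libraries (red shades) lie to the right of both DMSO libraries (blue shades), from 0.0965 FPKM for HSPA6 under DMSO to 621 for DNAJB1 at 2 h.

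HMOX1, which opens the heme ring and is a target of both NRF2 and stress kinases, had the widest gap outside the chaperones among the higher genes that were above 0 in all 4 libraries. It was at 36.7 and 36.1 FPKM under DMSO and at 245 and 354 at 2 h, 6.66-fold apart at the nearest, a log2 difference of 3.01 (SE 0.26). OSGIN1, an oxidative stress-induced growth inhibitor, was next in the NRF2 list, with 13.2 and 11.7 and then 25.5 and 27.3. SRXN1, which repairs oxidized peroxiredoxins, was at 60.1 and 40.3 and then at 75.2 and 64.3. GCLC, of glutathione synthesis, was at 18.7 and 17.1 and then at 22.3 and 22.5. NQO1, a standard NRF2 reporter, was at 266 and 206 and then at 260 and 198, and TXNRD1 was at 318 and 255 and then at 348 and 295, so neither was separated. AKR1C2 was the lowest, with 2.08 and 6.49 and then 1.81 and 4.55. Of 30 measured NRF2 targets, 1 was separated, 6 did not overlap and were higher, 0 were lower without overlap, and the median was -0.02. Over all genes tested these shares were 0.498%, 13.5% and 8.24%.

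On the PERK arm, CHAC1, which degrades glutathione and is a target of ATF4 and CHOP, had the widest gap of its list. It was at 0.738 and 2.08 FPKM under DMSO and at 15.5 and 14.2 at 2 h, a log2 difference of 3.47 (SE 0.53). Its promoter (GRCh38.p14, chr15:40953221-40953520, plus strand) is shown because it holds the composite element of CHOP and ATF4, in capitals, read on the other strand.

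CHAC1: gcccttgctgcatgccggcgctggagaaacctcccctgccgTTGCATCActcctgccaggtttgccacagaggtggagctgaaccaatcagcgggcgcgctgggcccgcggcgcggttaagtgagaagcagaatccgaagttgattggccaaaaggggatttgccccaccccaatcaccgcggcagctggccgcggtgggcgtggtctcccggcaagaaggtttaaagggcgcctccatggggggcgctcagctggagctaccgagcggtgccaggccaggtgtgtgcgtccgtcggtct

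This element was searched as TGATGNAA on both strands. CHAC1 and NKX6-1 held it among the 44 separated genes with an entry (4.55%), against 1.55% of all entries.

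CHOP itself, encoded by DDIT3, was at 14.0 and 46.3 FPKM under DMSO and at 99.1 and 188 at 2 h, 2.14-fold apart at the nearest. SESN2, a stress-inducible inhibitor of mTORC1 signalling, was at 1.89 and 2.94 and then at 8.77 and 9.40. Past 2-fold in both pairs but not separated was PPP1R15A, which directs the phosphatase of eIF2α, with 35.7 and 139 and then 236 and 320; it was picked after its values were seen. ATF4 was at 153 and 202 and then at 270 and 274, a log2 difference of 0.63 (SE 0.23, limma adjusted p = 1). Of the amino acid genes under ATF4, SLC3A2, a subunit of amino acid transporters, was at 205 and 112 and then at 287 and 222, without overlap. ASNS was at 29.1 and 13.4 and then at 34.2 and 26.1, and PSAT1 at 51.0 and 22.9 and then at 48.5 and 26.0, both with overlap. TRIB3, a pseudokinase, was at 12.9 and 11.1 and then at 13.8 and 13.5. STC2 was the lowest of the list, at 15.2 and 11.2 and then at 13.7 and 7.60. DDIT4 was at 21.2 and 49.6 and then at 34.8 and 60.0, and CEBPB was at 12.2 and 28.0 and then at 16.7 and 17.9, both with overlapping groups. Of 30 measured ATF4 and CHOP targets, 3 were separated upwards, 7 did not overlap and were higher, 1 was lower without overlap, and the median was 0.12, beside the same shares of 0.498%, 13.5% and 8.24% over all genes.

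ER chaperones and the ER-associated degradation genes held no separated gene out of 29. Over all genes tested, 0.498% were separated upwards and 0.092% downwards, so a list of this size would seldom hold one and nothing is read from the absence. Without overlap, 5 of them were higher and 1 was lower, against 13.5% and 8.24% of all genes. DNAJB9, a J-domain protein of the ER lumen, was at 3.17 and 8.66 FPKM under DMSO and at 12.0 and 21.1 at 2 h. HERPUD1, a membrane factor of ER-associated degradation, was at 14.3 and 33.2 and then at 50.7 and 79.7. Both were more than 2-fold higher in both pairs, and no other member was. HSPA5, the ER chaperone BiP, was at 197 and 337 and then at 229 and 354, a log2 difference of 0.14 (SE 0.40), and its groups overlapped. Genes of the 3 sensors and their targets gave the following values. EIF2AK3, which encodes PERK, was at 8.17 and 12.7 and then at 13.3 and 19.1, ERN1, which encodes IRE1, at 1.91 and 3.91 and then at 2.82 and 7.63, and XBP1 at 20.3 and 49.8 and then at 40.7 and 64.0. DNAJC3 was at 11 and 13.1 and then at 9.96 and 15.0. SDF2L1 was the lowest, with 27.9 and 31.4 and then 17.9 and 24.7. The list's median was -0.01, equal to that of all genes.

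Other separated genes encode regulators of transcription and RNA. MXD1, a partner of MAX that opposes MYC, was at 1.11 and 3.38 FPKM under DMSO and at 10.9 and 15.0 at 2 h. CLK1, a kinase of splicing factors, was at 22.7 and 25.7 and then at 71.1 and 74.5, with both 2 h values close together and 2.77-fold above DMSO at the nearest. PCF11, which ends transcripts at poly(A) sites, was at 11.8 and 10.5 and then at 30.4 and 37.4. OSR2, a zinc finger factor, was at 1.06 and 0.654 and then at 4.79 and 4.01. SNAI1, a repressor of E-cadherin, was at 6.48 and 13.0 and then at 33.8 and 36.7, while CDH1 itself lay between 11.4 and 19.3 in all libraries. All of these had DMSO and 2 h groups apart by more than 2-fold, SNAI1 and PCF11 falling outside the 25 widest gaps and chosen after their values were seen.

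Enzymes and signalling genes completed the widest gaps. FAM46C, a poly(A) polymerase, was at 0.603 and 0.875 FPKM and then at 3.19 and 4.59. KBTBD8, an adaptor of a CUL3 ubiquitin ligase, was at 0.581 and 0.482 and then at 2.04 and 2.25, and RGS16, which shortens G-protein signals, was at 0.727 and 0.812 and then at 2.72 and 2.55. The remaining genes among the 25 were low as well. LSMEM1 was at 0.608 and 0.836 and then at 2.70 and 4.78, NNAT at 0.571 and 0.534 and then at 1.88 and 2.13, and the telomerase RNA gene TERC at 1.07 and 0.591 and then at 3.43 and 3.09. The antisense gene PSMD6-AS2 (0.45 and 0.503, then 1.64 and 2.11) cannot be told apart from its partner without strand. LOC100506235 was at 0.300 and 0.418 and then at 1.6 and 2.60, and LOC102723663 at 2.38 and 3.40 and then at 11.8 and 11. The median DMSO level of the 58 was 2.02 FPKM, against 11.7 for all genes tested, and 21 of the 58 had a DMSO mean under 1. These 21 reached the filter on low values only through the 2 h libraries, so their place among the 58 rests on being high there.

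Replication-dependent histone genes, whose main transcripts lack a poly(A) tail, were a group noticed after their values were seen. Of 33 tested symbols that start with HIST, 7 were separated upwards, 20 did not overlap and were higher, 0 were lower without overlap, and the median was 0.94. Over all genes tested these shares were again 0.498%, 13.5% and 8.24%, and nothing is read from the difference, since the group was chosen on these values. HIST1H2AK was at 0.517 and 0.858 FPKM under DMSO and at 4.34 and 3.32 at 2 h. HIST1H3J was at 0.728 and 0.537 and then at 2.39 and 3.12, and HIST1H2BL at 0.530 and 0.294 and then at 2.62 and 1.70. These levels are low and the copies nearly identical, so the counts per gene are uncertain.

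Immediate-early genes stood apart from the above because the DMSO libraries did not match. FOS was at 2.34 FPKM in DMSO replicate 1 and 373 in DMSO replicate 2, and at 263 and 338 in the 2 h libraries. EGR1 was at 5.80 and 348 and then at 328 and 247, and ATF3, also an ATF4 target, at 1.06 and 99.4 and then at 46.0 and 80.2. In each, DMSO replicate 2 was above at least 1 of the 2 h libraries. FOSB had the highest mean of the list, with 0.127 and 156 and then 55.7 and 142, and BHLHE40 the lowest, with 5.93 and 65.8 and then 5.6 and 13.7. Of 38 genes, 32 were more than 2-fold higher in DMSO replicate 2 than in replicate 1, against 8.11% of all genes. By pair, 21 were more than 2-fold higher in replicate 1, and in replicate 2 only IER5 was, while 11 were more than 2-fold lower. Of all 13041 genes tested, 385 were more than 2-fold higher in replicate 1, and 281 were higher and 134 lower in replicate 2. The list median was 1.40 in replicate 1 and -0.54 in replicate 2. IER5 was thus the single separated member, where 0.498% of all genes were, and KLF4 (7.41 and 17.8, then 21.4 and 25.3) was the other member that did not overlap and was higher.

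The same split ran through MAPK feedback genes and NF-kB targets. DUSP1, a phosphatase that switches off MAP kinases, was at 11.6 and 332 FPKM under DMSO and at 95.5 and 157 at 2 h. DUSP4 was the lowest, with 6.05 and 8.08 and then 5.43 and 3.24. Of the 18 feedback genes, 0 were separated, and the median was 0.44 in replicate 1 and -0.70 in replicate 2. Without overlap, 2 of the 18 were higher and 4 were lower, DUSP4 among the latter, against 13.5% and 8.24% of all genes. NFKBIA, the inhibitor that NF-kB induces to limit itself, was at 35.5 and 223 and then at 25.5 and 42.7, a log2 difference of -0.48 in replicate 1 and -2.38 in replicate 2. Cytokine genes were higher in DMSO replicate 2 than in DMSO replicate 1 in the examples here. CXCL2 was at 0.348 and 105 under DMSO and at 0.819 and 7.05 at 2 h, and IL6 was at 0.569 and 68.4 and then at 1.04 and 9.51. CCL2, a chemokine, was well above 0 in every library, at 32.0 and 496 and then at 37.2 and 251. Of the 31 NF-kB genes, 25 were more than 2-fold higher in DMSO replicate 2 than in replicate 1, 11 were more than 2-fold lower at 2 h within replicate 2 and 0 were within replicate 1, and none was separated. Over all genes tested, 8.11% were more than 2-fold higher in DMSO replicate 2, and 0.498% were separated upwards. Of all 13041 genes, 134 were more than 2-fold lower at 2 h within replicate 2 and 71 within replicate 1. REL, an NF-kB subunit, had the highest mean of the NF-kB list, with 1.30 and 4.16 and then 3.68 and 9.29. Without DMSO replicate 1 the median was -0.79 for the immediate-early genes and -1.56 for the NF-kB genes, and without DMSO replicate 2 it was 1.57 and 1.38, so the direction depends on the DMSO library taken. Why the DMSO libraries differed was not tested.

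The p53 and apoptosis lists had a few high members. SERTAD1, a CDK4 regulator, was at 13.9 and 44.5 FPKM under DMSO and at 102 and 125 at 2 h. It was the 1 separated gene of 21 in the p53 list, where 0.498% of all genes were separated upwards. ZMAT3 was the lowest, at 5.85 and 4.90 and then 3.58 and 4.13, without overlap. CDKN1A, the p21 inhibitor of cell cycle kinases, was more than 2-fold higher in both pairs, with 2.71 and 11.1 and then 16.7 and 23.1. In the BCL2 family, 0 of 12 were separated. PMAIP1, the death-promoting NOXA, was at 17.0 and 25.1 and then at 42.0 and 36.1, while BCL2L1 was at 122 and 67.8 and then at 104 and 57.7.

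Autophagy, proteasome and sterol genes held no separated member, where 0.498% of all genes were separated upwards, so nothing is read from the absence. Without overlap, 7 of 25 autophagy and ubiquitin genes were higher and 0 lower, and 4 of 23 sterol genes were higher and 1 lower. Over all genes tested these shares were 13.5% and 8.24%. GABARAPL1, an ATG8 protein, had the highest mean of the 25 autophagy and ubiquitin genes, at 3.21 and 29.3 FPKM and then 15.2 and 47.8, with overlap, and ULK1 the lowest, at 2.28 and 4.0 and then 2.22 and 3.23. WIPI1 was at 3.31 and 9.62 and then at 2.80 and 10.5. Of the 34 proteasome subunits, the log2 difference ran from -0.21 for SHFM1 to 0.09 for PSMC6. Without overlap, 0 were higher and 1 was lower. HMGCS1, of cholesterol synthesis, was the highest of its 23 genes at 15.1 and 27.9 and then 31.7 and 47.9, and MVD was the lowest at 23.6 and 32.7 and then 22.7 and 27.2.

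Proliferation genes differed little by treatment. The 26 mitosis genes had a median of 0.03, between -0.14 for MKI67 and 0.36 for CENPE, and 0 lay apart without overlap in either direction. Their summed FPKM was 2667 and 1308 under DMSO and 2929 and 1238 at 2 h, so it followed the replicate number. The 30 DNA replication genes had a median of -0.13, 20 of them were lower in both pairs and 3 higher in both, and only CCNE1 was without overlap, at 9.31 and 7.94 and then at 11.9 and 10.2. Of all 13041 genes tested, 4558 were lower in both pairs and 4085 higher in both. Without overlap, 13.5% of all genes were higher and 8.24% lower. E2F2 was the lowest of the DNA replication genes, with a log2 difference of -0.45. Metallothioneins and zinc export were represented by 6 measured genes, 0 of them separated, from MT1F (6.38 and 8.60, then 5.49 and 6.41) to the zinc sensor MTF1 (3.28 and 4.13, then 5.2 and 6.81). Among 26 short-lived signalling genes, BAMBI, a decoy receptor of TGF-β, was separated at 3.92 and 4.33 and then at 10.3 and 9.60, and SMAD6 was the lowest at 5.33 and 16.2 and then 4.70 and 10.5. BAMBI was the 1 separated member, where 0.498% of all genes were separated upwards. TSPYL2, which is in no list, was at 6.03 and 29.6 and then at 18 and 31.7.

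**Figure D3:**
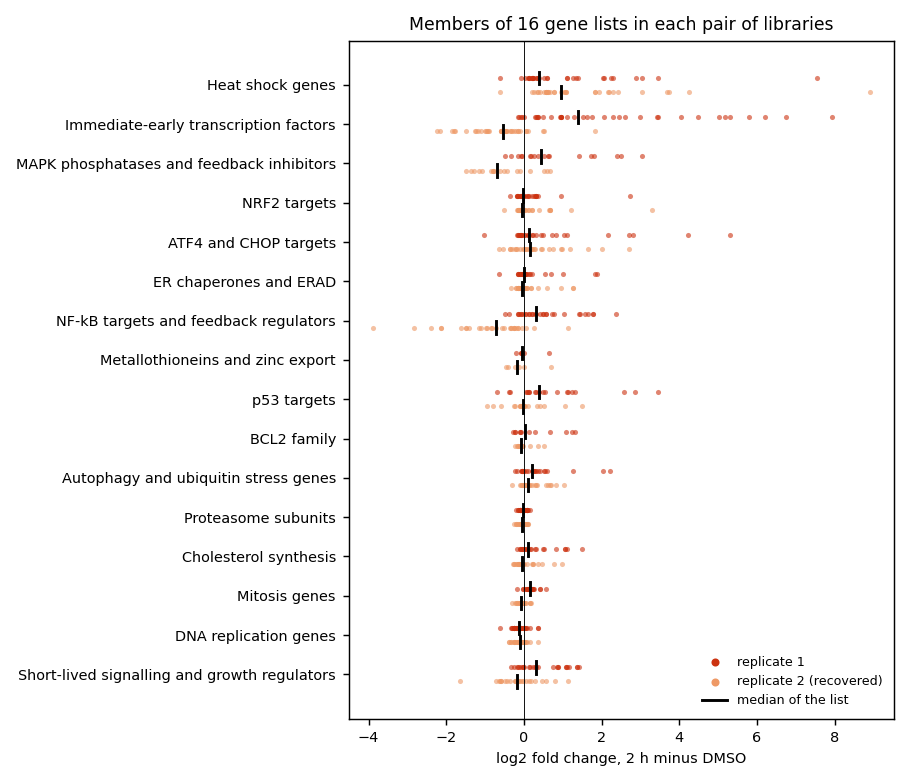
Log2 fold change (2 h minus DMSO) of each measured member of 16 gene lists (points) and the median of the list (black bars), in replicate 1 (red) and in the recovered replicate 2 (orange). The heat shock list is above 0 in both, with medians of 0.38 and 0.96, while the medians of the immediate-early, MAPK feedback and NF-kB lists lie on opposite sides of 0.

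Fewer genes were lower. Above 0 in all libraries and separated downwards were 5 symbols. METTL12, a mitochondrial methyltransferase gene, and the snoRNA SNORA57 shared a single row of values, at 54.3 and 20.8 FPKM under DMSO and at 1.87 and 1.85 at 2 h, a log2 difference of -4.10 (SE 0.53). The row cannot be assigned to either the coding gene or the snoRNA. TFF2, a secreted trefoil peptide of mucosal epithelia, was at 2.04 and 1.96 and then at 0.801 and 0.879, 2.11-fold apart at the nearest. LOC101928830 was at 2.23 and 2.04 and then at 0.773 and 0.340, and LOC101928262 at 3.0 and 1.97 and then at 0.735 and 0.905. The 20 widest gaps downwards included 9 symbols that start with LOC and 3 antisense genes, and no value among them was above 54.3.

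Apart from TFF2, ECSCR and METTL12, whose row is also that of SNORA57, the coding genes without a LOC number among those 20 were lower by less than 2-fold. BCL9L, a coactivator of WNT signalling, was at 18.7 and 20.2 FPKM and then at 13.1 and 13.2, 1.42-fold apart at the nearest. RAI1, a chromatin-associated regulator, was at 9.53 and 9.06 and then at 6.40 and 6.17. Both had replicates that lay close together in each group. CNTFR, a cytokine receptor, was at 2.41 and 3.20 and then at 1.67 and 1.46, and RTN4RL1 was at 1.62 and 1.33 and then at 0.909 and 0.807. Of the antisense genes, RBM5-AS1 was at 2.48 and 2.18 and then at 0.753 and 1.15, BACE1-AS at 1.27 and 2.19 and then at 0.683 and 0.300, and MFI2-AS1 at 2.32 and 2.58 and then at 1.36 and 1.44. Again the strand of these reads is unknown. ECSCR was at 3.24 and 3.09 and then at 1.51 in both 2 h libraries. ZNF767 was at 1.85 and 2.22 and then at 0.934 and 1.27. The other 7 symbols start with LOC and were not sorted into coding and noncoding. Their log2 differences ran from -1.63 (LOC102724583 and LOC102724594, which share a row) to -0.91 (LOC101928927).

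**Figure D4:**
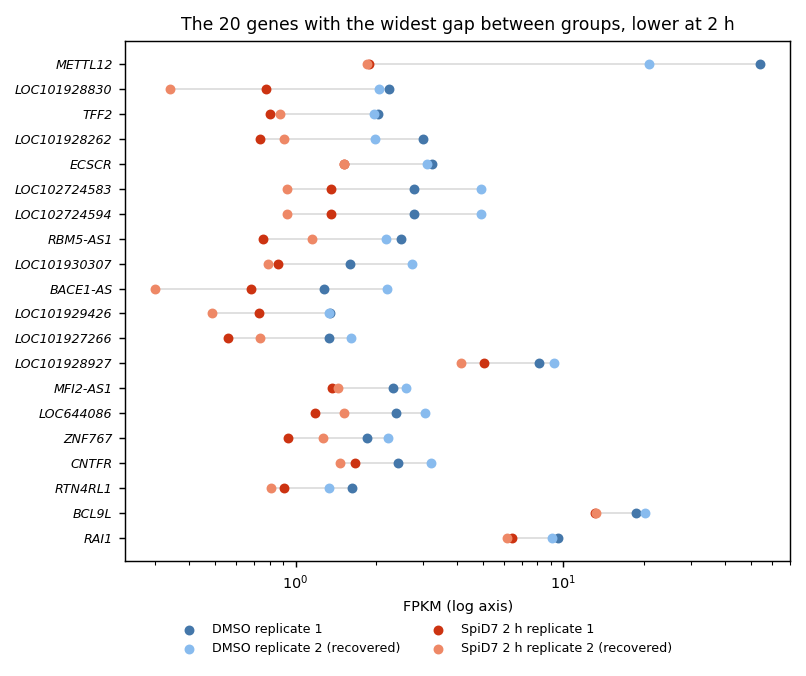
FPKM (log axis) in each of the 4 libraries of the 20 symbols with the widest gap between groups among those lower at 2 h, above 0 in all 4 libraries and outside the small RNA class. Both 2 h libraries (red shades) lie to the left of both DMSO libraries (blue shades) in every row. Apart from METTL12, which shares its values with the snoRNA SNORA57, the gaps are narrow.

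Small RNAs and other genes listed at 0 made up the rest. MIR1260B was at 1131 and 1443 FPKM under DMSO and was listed at 0 in both 2 h libraries, with a limma adjusted p of 0.0106. SNORA32, at 50.9 and 70.1, and SNORA18, at 26.4 and 32.3, were also listed at 0 at 2 h (limma adjusted p = 0.0233 for each). LOC101927306, the remaining gene past the threshold, was at 2.67 and 2.86 and then listed at 0 (limma adjusted p = 0.048). In the other direction MIR762 was listed at 0 under DMSO and at 969 and 2957 at 2 h, VTRNA1-2 at 0 and then at 665 and 1776, and MIR3648 at 0 and then at 3.9 and 9.11. None of these 3 passed the limma test, with adjusted p of 0.0595, 0.0527 and 0.371. A 0 in such a table can be a failed estimate, and FPKM of genes this short is inflated by their length. At 6 h and 12 h MIR1260B was at 513 and 635, SNORA18 at 26.0 and 63.8, and MIR762 at 0 at both times. Of 255 symbols in the small RNA class, 4 were separated upwards and 6 downwards, 22 did not overlap in each direction, and the median was -0.01. Over all genes tested, 0.498% were separated upwards and 0.092% downwards, and 13.5% were higher and 8.24% lower without overlap.

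The genes just inside 2-fold separation were RMRP (2.01-fold) and, among those lower, LOC101928262 (2.06-fold). Just outside, among those lower, lay ECSCR (1.98-fold).

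The later libraries, set to the same scale through a DMSO library shared by the comparisons, give the later levels of these genes. Of the 58 separated genes higher at 2 h and above 0 in all libraries, 51 were above both 2 h libraries at 6 h and 37 at 12 h, and 36 were so at both times. All but LOC102723663, at 2.86 FPKM at 6 h, were above both DMSO libraries at 6 h, and 58 of 58 were at 12 h. Between the later times, 39 were lower at 12 h than at 6 h and 19 were higher. HSPA6 was at 620 at 6 h and 1030 at 12 h, and HSPA1B at 1049 and 1172. BAG3 was at 292 and 438, and CLU, a secreted chaperone that was at 7.51 and 7.53 under DMSO and at 19.1 and 19.4 at 2 h, was at 45.3 and 96.6. These genes were higher at each time than at the one before. HMOX1 was instead at 773 at 6 h and 529 at 12 h, CHAC1 at 31.2 and 12.4, MXD1 at 15.1 and 6.65, and DDIT3 at 203 and 124. DNAJB4 was at 45.6 and 38.7, not above its higher 2 h library. Of the 5 lower symbols, 4 were below both DMSO libraries at each later time, whereas TFF2 was at 2.81 and 2.43, above both. Of the ER genes, HSPA5 was at 638 and 1378 and HERPUD1 at 248 and 350, above both DMSO libraries, while CALR, an ER lectin chaperone at 395 and 673 under DMSO, was at 472 and 602. The later values rest on 1 library each and carry no test, and 21 of the 58 higher genes passed the filter only through the 2 h libraries.

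**Figure D5:**
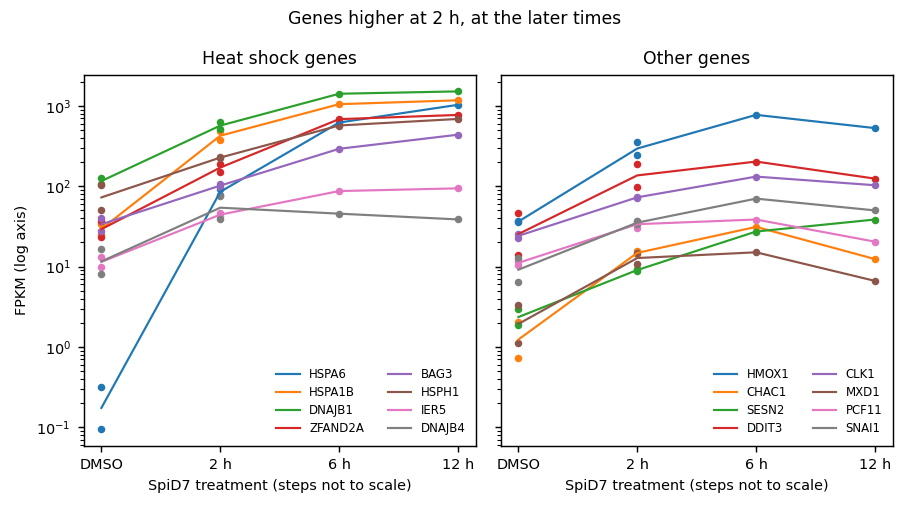
FPKM (log axis) of 16 genes in the DMSO and SpiD7 libraries. Points are libraries, and lines join the geometric means of DMSO and 2 h with the single libraries of 6 h and 12 h. HSPA6 climbs from under 1 to 1030, and HMOX1, CHAC1 and MXD1 are lower at 12 h than at 6 h.

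Gene span and promoter letters, which the comparison did not use, are given as a description. The 58 higher genes spanned a median of 10.6 kb in the table's loci (quartiles 2.76 and 22.9), against 35.6 kb (14.6 and 86.2) for all genes tested. Of these 58, 21 passed the filter on low values only through the 2 h libraries. The 1758 genes that merely did not overlap and were higher spanned 39.7 kb, with no test made. In the promoter entries, 10 of 44 held the antioxidant response element (22.7%, against 15.2% of all), among them HSPA6, ZFAND2A, CLK1, MXD1 and PCF11. An AP-1 site, TGANTCA, which overlaps that element in HSPA6, was in 4 (9.09%, against 4.54%). A kB site, GGNNTTTCC, was in 3 (6.82%, against 6.65%), and the cyclic AMP response element TGACGTCA was in 0 (3.35% of all). The ER stress response element, CCAAT and CCACG around 9 bases, was in 0 as well (0.14% of all). Each entry covers only 250 bases before and 50 after a start, HMOX1 had none, and a match is a description of letters.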

How the data were processed

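RNA-Seq of 2 DMSO and 2 SpiD7 2 h libraries of OVCAR5 cells was compared, and 1 library each of 6 h and 12 h gave later values. By the methods and the labels' processing notes, the authors used Trim Galore on single reads, then TopHat 2.0.8 for alignment and Cufflinks 2.1.1 for FPKM, and Cuffdiff 2.1.1 scaled each comparison on its own. A mouse build is named beside hg38, but coordinates in the table are those of human chromosomes. FPKM values were deposited together with log2 fold changes, p-values and q-values of the authors' own tests, and the latter 3 were not used.

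The columns named for replicate 2 were read as the authors' means of both libraries. The weight of replicate 1 was the lower limit of the ratio of the columns, 0.526 for DMSO (809 rows, SD 1.9e-05) and 0.509 for 2 h (958 rows, SD 2.24e-05), so that the mean less this weight times replicate 1, divided by the weight, gave replicate 2. Remainders of less than 0.2% of the mean were set to 0. This assumes equal weights, and the source of the columns is not stated. The 6 h and 12 h libraries were rescaled through the DMSO library that all comparisons share (factors 0.972 and 0.994).

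Rows were summed by symbol (33085 rows), and 1082 tested symbols share all values with another. Tests used limma 3.58.1 in R 4.3.3 on log2(FPKM + 0.1), unpaired, with Benjamini-Hochberg adjustment over 13041 genes, and Python 3.11.15 with pandas 2.3.3. The limma fit and the recovery were tested on simulated data. Depth is unknown beyond relative values, and no counting interval is given. Members and lists were chosen with earlier results of these data known. Named genes were those called by limma, the 25 widest gaps upwards and 20 downwards, separated members and ends of each list, genes the study names in its RNA-Seq text, the 3 highest and 3 lowest small RNAs and the genes nearest the 2-fold limit; others are examples chosen after their values were seen. A few genes that this rule names are not reported here. Promoters are RefSeq's (GRCh38.p14), matched by symbol for 76.6% of genes tested. Alternatives were other pseudocounts, filters, scaling, treatment of repeated symbols, the columns as deposited, a replicate block, an intensity trend and leaving out each library.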

Additional observations from a re-analysis of the deposited data

How the results depend on the processing

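Among the 46 named genes separated by more than 2-fold, 0 changed sign in any alternative. Their selection by separation made this nearly certain in advance, so nothing is read from it. The log2 difference of 4 of the 46 fell under 1 in size in some alternative. The counts of 65 genes higher and 12 lower at 2 h moved with the treatment of low values and with the library left out. Without a filter 181 and 54 were separated, and the number of genes past 2-fold in both same-numbered pairs, higher or lower, was 303 and 76. At a mean FPKM of at least 5, 31 were separated upwards, 52 were past 2-fold upwards and 9 downwards in both pairs, and limma called 3. A pseudocount of 1 left 34 separated upwards, 59 past 2-fold upwards in both pairs and 1 limma call, and one of 0.01 gave 8 calls. Limma called 1 gene without a filter, 2 with an intensity trend and 0 without the small RNA class, which also left 6 genes separated downwards and 8 past 2-fold downwards. With the columns of replicate 2 as deposited, 132 and 45 were separated and 176 and 47 past 2-fold in both pairs, and 64 of the 65 were among the 132. Median-ratio scaling gave 58 and 16 separated genes. With symbols of a shared row counted once, chosen after seeing the data, 65 and 11 were separated and limma called 5.

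The labels give both groups replicates 1 and 2. With these numbers as a replicate block, limma called 0 genes, with a smallest adjusted p of 0.0937 and 1853 genes at an unadjusted p under 0.05, against 328 without it. Deviations of same-numbered libraries correlated at 0.359 over genes, which with 2 pairs is a hint only.

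Leaving out 1 library gave 12 to 39 limma calls, 134 to 282 genes separated upwards and 30 to 86 downwards. A single remaining pair had 281 to 385 genes past 2-fold upwards and 71 to 134 downwards. The list medians ran from -0.68 to 0.54 for MAPK feedback genes, 0.043 to 0.15 for NRF2 targets, -0.20 to 0.39 for p53 targets, 0.0034 to 0.43 for autophagy genes, and -0.21 to 0.31 for short-lived signalling genes. The cause was not tested. Depth limits the low genes: 21 of the 58 had a DMSO mean under 1 FPKM.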
